A study of Mus musculus with 35 samples.

Results

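The Schlafen genes of the mouse encode a family of intracellular proteins named after their effect on growing T cells, and type I interferon raises the transcription of several of them in leukocytes. The short proteins Slfn1 and Slfn2 hold little beyond the core shared by the family. Slfn2 is required for the quiescence of T cells and monocytes. Slfn3 and Slfn4 are longer, and Slfn4 is known from myeloid cells, including Slfn4-positive suppressor cells of the inflamed stomach. Slfn5, Slfn8 and Slfn9 are the long members, which carry a helicase-like domain at the carboxyl end.

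The 7 genes described here, Slfn1, Slfn2, Slfn3, Slfn4, Slfn5, Slfn8 and Slfn9, are the family members named by their symbols among 53379 rows of the count table. The family was selected on earlier results of these data, and the response to treatment is taken as what chose it, so the treated against untreated values below are a description, without p-values. Comparisons of cell types and organs among untreated mice carry adjusted p-values. How far those levels also entered the choice is not recorded, and to that extent these p-values are too small.

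The cells came from C57BL/6 mice bearing orthotopic tumors of T110299, a pancreatic cancer line from 1 mouse tumor with a mutant and a floxed Trp53 allele and Cre driven by the pancreatic promoter Ptf1a. Every mouse carried this tumor, and the labels give no age. Treated mice received intravenous poly(I:C)c, which is 50 µg of the double-stranded RNA poly(I:C) complexed with polyethylenimine and a ligand of the RNA sensor MDA5, on day 18 and again on day 20 after tumor induction. Control mice, called untreated here, received glucose according to the labels and the study's methods, while its account of the sequenced mice calls them left without treatment. Myeloid-derived suppressor cells (MDSC) were enriched over CD11b and then sorted from spleen and tumor, as PMN-MDSC (Ly6G-positive, Ly6C-low) and M-MDSC (Ly6C-high, Ly6G-negative). Untreated mice gave 4 libraries of each of these 4 fractions. Treated mice gave 3 libraries of spleen PMN-MDSC, 4 of tumor PMN-MDSC, 4 of spleen M-MDSC and 3 of tumor M-MDSC, and 4 libraries of bulk tumor came from untreated mice. The labels number the samples across fractions but do not say what the numbers mark, and the column names do not carry them. Fractions may share mice, the tests take their libraries as independent, and p-values measure the spread between libraries.

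The 30 MDSC libraries held 793070 to 4357105 counts and the bulk tumor libraries 3771590 to 8886115. A count of 3 was taken as the floor, which was 0.689 to 3.78 CPM (counts scaled to a common library total of 1e6) in the MDSC libraries. A library of treated tumor M-MDSC, the one with 4357105 counts, went against its label in part of its markers. It held 2.98 CPM of the sorting antigen gene Ly6c2, against 622 and 443 in the other libraries of its group. Its macrophage list of 10 genes summed to 30025 CPM, against 5929.4 and 12074. Other markers did not go against the label. Its monocyte list of 10 genes summed to 6306.3 CPM, against 11489 and 6027.2. The monocyte receptor gene Csf1r stood at 1531.3 CPM, against 1116.5 and 961, and Ly6g at 0.23, against 0.421 and 1.47. Another library, treated spleen M-MDSC with 2261063 counts, held 13625 CPM of the immunoglobulin gene Ighm, against 123 to 394 in the others. Tumor PMN-MDSC of untreated mice were poor in the neutrophil antigen gene Ly6g, at 0 to 9.19 CPM against 34.5 to 84.7 in spleen, and their macrophage list summed to 10182 to 13746 CPM against 554 to 1804.5. In sorted or bulk material, fewer cells of a type and less RNA per cell cannot be told apart. The part of these cells in the values below was not tested. Some results, but not all that include them, are also given without 1 of the first 2 libraries.

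The 7 genes lie in 1 cluster of 263.8 kb on chromosome 11 of GRCm38, in the order Slfn5, Slfn9, Slfn8, Slfn2, Slfn1, Slfn4 and Slfn3. Slfn8 and Slfn9 are on the minus strand and the other members on the plus strand. Reads of the members can be hard to place, because parts of their exons are alike. Of the 50-base stretches of exon sequence, 14.6% of Slfn8 and 11.2% of Slfn9 recur in a relative, all of them among these 2 genes and the pseudogene Slfn10-ps. The share was 8.15% for Slfn4, 7.39% for Slfn3, 4.27% for Slfn2, 0.606% for Slfn1 and 0 for Slfn5. Values of the members that share stretches are uncertain for this reason. The shares do not give the amount, because the study's mapping allowed mismatches. Gm20234 lies antisense to Slfn2 and Slfn5os antisense to Slfn5, and counting was by strand.

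Promoter windows of the members are shown because interferon acts through the interferon-stimulated response element, whose core is a repeat of GAAA with a gap of 2 bases. Each window holds 250 bases before and 50 after the RefSeq start of transcription (GRCm38.p6), written in the direction of the gene. GAAANNGAAA was searched on both strands, as itself and as its reverse complement TTTCNNTTTC, and its matches are in capitals. Slfn5, Slfn8 and Slfn9, the long members, each hold a match, and Slfn4, the member with the highest values after treatment, is shown beside them.
Slfn5 (chr11:82951852-82952151, plus strand): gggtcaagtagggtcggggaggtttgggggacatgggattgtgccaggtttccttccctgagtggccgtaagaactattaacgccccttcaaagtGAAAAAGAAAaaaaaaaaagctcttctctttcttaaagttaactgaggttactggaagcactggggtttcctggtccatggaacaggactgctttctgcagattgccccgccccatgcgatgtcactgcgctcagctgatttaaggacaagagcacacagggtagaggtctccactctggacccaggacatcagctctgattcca
Slfn9 (chr11:82991781-82992080, minus strand): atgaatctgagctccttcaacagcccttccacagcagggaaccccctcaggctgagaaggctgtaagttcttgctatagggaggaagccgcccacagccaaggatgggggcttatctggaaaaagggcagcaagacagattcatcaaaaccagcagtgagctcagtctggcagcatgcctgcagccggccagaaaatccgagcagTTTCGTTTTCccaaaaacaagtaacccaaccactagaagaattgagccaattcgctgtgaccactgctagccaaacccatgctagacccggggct
Slfn8, start nearest the match (chr11:83020761-83021060, minus strand): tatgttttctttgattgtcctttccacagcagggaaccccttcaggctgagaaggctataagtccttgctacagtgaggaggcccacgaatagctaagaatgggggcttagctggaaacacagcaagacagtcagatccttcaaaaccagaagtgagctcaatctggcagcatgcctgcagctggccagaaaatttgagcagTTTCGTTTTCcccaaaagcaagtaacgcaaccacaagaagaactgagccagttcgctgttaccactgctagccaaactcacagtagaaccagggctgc
Slfn4 (chr11:83174936-83175235, plus strand): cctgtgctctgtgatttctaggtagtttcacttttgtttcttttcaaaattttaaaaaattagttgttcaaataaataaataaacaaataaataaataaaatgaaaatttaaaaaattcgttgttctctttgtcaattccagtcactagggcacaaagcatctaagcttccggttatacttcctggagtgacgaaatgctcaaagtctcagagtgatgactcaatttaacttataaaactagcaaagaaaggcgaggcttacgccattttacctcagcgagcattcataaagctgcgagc
The match of Slfn5 began 155 bases before the start, as GAAAAAGAAA. Slfn9 held TTTCGTTTTC 45 bases before its start, and Slfn8 held the same letters 48 bases before the start shown and 136 before its other RefSeq start. The windows of Slfn8 and Slfn9 were identical at 246 of 295 aligned bases (83.4%). The windows of Slfn1, Slfn2, Slfn3 and Slfn4 did not hold these letters. Over all 32851 promoter windows of the same length, 1131 held the motif (3.44%).

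Slfn4, a myeloid member, had the widest range, with the highest group mean 132 times the lowest among MDSC. In untreated mice it was a transcript of spleen PMN-MDSC, with 1493.6, 1768.9, 2214.4 and 1993.1 CPM. Spleen M-MDSC held 70.7, 85, 86.1 and 61.2 CPM. Every spleen PMN-MDSC library lay far above every spleen M-MDSC library. Untreated tumor PMN-MDSC held 163, 356, 346 and 410 CPM and untreated tumor M-MDSC 154, 155, 130 and 89.5 CPM. The lowest tumor PMN-MDSC library lay just above the highest tumor M-MDSC library, and whether the gap between cell types differed between the organs was not tested.

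After poly(I:C)c, Slfn4 stood at 6037.1, 13719 and 10268 CPM in spleen PMN-MDSC. Tumor PMN-MDSC held 2323, 2239.1, 2891.5 and 5448.5 CPM and spleen M-MDSC 1962.4, 1911.2, 2921.6 and 1969.4 CPM. In all 3 fractions every treated library exceeded every untreated one. Tumor M-MDSC of treated mice held 1962.6, 123 and 1588.4 CPM. The value of 123 belongs to the library low in Ly6c2 and lies within the untreated range of 89.5 to 155 CPM. The fitted log2 fold change was 2.73 ± 0.33 (SE) in spleen PMN-MDSC, 3.35 ± 0.43 in tumor PMN-MDSC, 4.93 ± 0.22 in spleen M-MDSC and 3.12 ± 0.73 in tumor M-MDSC.

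Slfn1, a short member, was also highest in spleen PMN-MDSC. Untreated spleen PMN-MDSC held 687, 951, 929 and 895 CPM, and untreated spleen M-MDSC 198, 241, 207 and 152 CPM. In tumors the untreated values were 94, 192, 178 and 214 CPM in PMN-MDSC and 127, 135, 113 and 119 CPM in M-MDSC. PMN-MDSC thus lay above M-MDSC in spleen without overlap, and the tumor fractions overlapped. With treatment, spleen PMN-MDSC held 1021.3, 1452.3 and 1505.6 CPM, and spleen M-MDSC 457, 535, 624 and 487 CPM. Tumor PMN-MDSC of treated mice held 370, 338, 559 and 710 CPM. These 3 treated groups lay above their untreated groups. Treated tumor M-MDSC held 381, 91.1 and 350 CPM, and the low value came again from the library low in Ly6c2.

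Slfn2, the quiescence factor, was the most even of the members, with a highest group mean 3.06 times the lowest. Untreated spleen PMN-MDSC held 950, 1434.3, 1190 and 1243.6 CPM, and untreated tumor PMN-MDSC 389, 422, 507 and 501 CPM. Untreated M-MDSC held 467, 543, 502 and 493 CPM in spleen and 614, 464, 668 and 473 CPM in tumor. Spleen PMN-MDSC stood alone above the other 3 untreated fractions. Treated libraries held 1026.5, 1483.5 and 1669.8 CPM in spleen PMN-MDSC, of which the first lay within the untreated range. Treated tumor PMN-MDSC held 614, 700, 867 and 1446.7 CPM, and treated spleen M-MDSC 675, 952, 721 and 712 CPM, above their untreated groups. Treated tumor M-MDSC held 691, 331 and 1044.9 CPM and overlapped the untreated libraries.

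Slfn5, a long member, was higher in M-MDSC than in PMN-MDSC of untreated mice. Spleen M-MDSC held 549, 601, 503 and 463 CPM against 281, 245, 286 and 259 in spleen PMN-MDSC. Tumor M-MDSC held 504, 429, 351 and 474 CPM against 161, 145, 159 and 157 in tumor PMN-MDSC. In treated spleen PMN-MDSC the values were 791, 1651 and 1608.6 CPM, and the order of the group means reversed, with treated spleen M-MDSC at 870, 1036.7, 874 and 636 CPM. The treated spleen groups overlapped each other. Treated tumor PMN-MDSC held 498, 410, 360 and 684 CPM, all above the untreated ones. Treated tumor M-MDSC held 570, 344 and 679 CPM, which overlapped the untreated values.

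Slfn8, also long, had group means between 69.4 and 150 CPM in untreated MDSC, lowest in tumor PMN-MDSC and highest in spleen M-MDSC. Untreated spleen PMN-MDSC held 119, 112, 148 and 145 CPM and treated ones 245, 636 and 484. In spleen M-MDSC the values went from 139, 151, 153 and 155 CPM to 314, 277, 341 and 317. Tumor PMN-MDSC went from 67.3, 82.4, 64.3 and 63.5 CPM to 229, 208, 211 and 321. Tumor M-MDSC held 146, 105, 90.4 and 73.1 CPM untreated and 210, 187 and 294 treated. In all 4 fractions the treated libraries lay above the untreated ones, the library low in Ly6c2 included.

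Slfn9, the remaining long member, was lower than Slfn8 per kilobase of exon in every MDSC group. Untreated spleen PMN-MDSC held 18.6, 4.48, 15.2 and 17.3 CPM, the lowest group, in which the smallest value rests on 9 counts. Untreated tumor PMN-MDSC held 32.8, 37.4, 37.6 and 36.5 CPM, untreated spleen M-MDSC 43.8, 63.2, 65.4 and 61.4, and untreated tumor M-MDSC 26.4, 40.4, 28.9 and 32.8. Treated libraries held 26.3, 73.5 and 51.8 CPM in spleen PMN-MDSC and 82.4, 73.4, 46.1 and 56.8 in tumor PMN-MDSC. Treated spleen M-MDSC held 176, 81.2, 177 and 144 CPM and treated tumor M-MDSC 91.9, 78.7 and 119. Every treated group lay above its untreated group, and as for Slfn8 the library low in Ly6c2 did not stand apart.

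Slfn3, the partner of Slfn4 in length, was the rarest member per kilobase of exon in every group, at 3.79 to 27.9 CPM in MDSC and 7 to 75 counts per library of MDSC. Its highest group was untreated spleen M-MDSC, with 20.6, 27.9, 27.3 and 17.9 CPM. Treated spleen M-MDSC held 14.2, 9.61, 10.8 and 14.2 CPM, all below the untreated ones, the one fraction in which a member was lower after treatment in every library. Untreated spleen PMN-MDSC held 9.82, 5.48, 9.15 and 6.74 CPM and treated ones 7.04, 17.8 and 9.36, which overlapped. Tumor fractions held 3.79 to 11.3 CPM with overlap between treated and untreated groups.

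**Figure D1:**
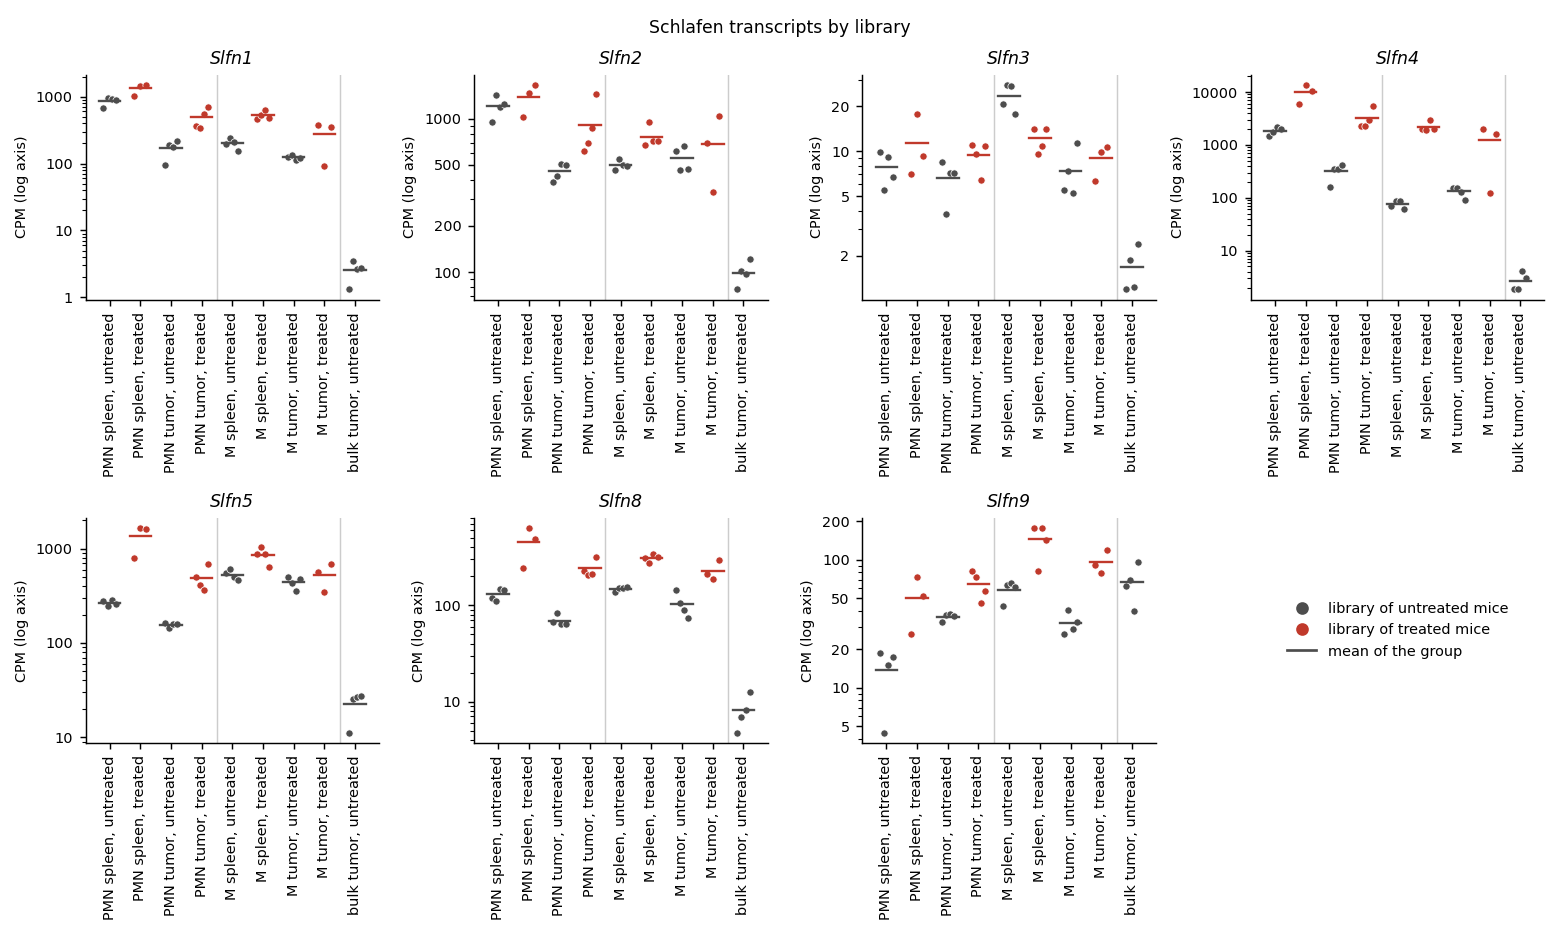
CPM (log axis) of the 7 Schlafen genes in each library, for PMN-MDSC and M-MDSC of spleen and tumor and for bulk tumor. Points are libraries, grey from untreated and red from treated mice, and lines are group means, for example 1867.5 CPM of Slfn4 in untreated and 10008 CPM in treated spleen PMN-MDSC.

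Bulk tumor of untreated mice separated Slfn9 from the other members. It held 62, 70, 39.8 and 95.6 CPM of Slfn9, within the range of the MDSC fractions and above every untreated PMN-MDSC library of the tumor. Slfn4 stood at 1.85, 1.86, 4.05 and 3.09 CPM in bulk tumor and Slfn1 at 1.32, 3.45, 2.7 and 2.75. Untreated tumor PMN-MDSC therefore held 117 times the bulk mean of Slfn4 and 66.4 times that of Slfn1, and untreated tumor M-MDSC 48.8 and 48.3 times. Slfn2 reached 77.1 to 121 CPM in bulk tumor, so that untreated tumor PMN-MDSC were 4.59 times and tumor M-MDSC 5.61 times higher. Slfn5 held 11.2, 25.2, 27 and 27.5 CPM in bulk, Slfn8 4.76 to 12.7 and Slfn3 1.19 to 2.4. For Slfn9 the same ratios were 0.539 and 0.48. The bulk libraries were not sorted and held 4937 to 6701.2 CPM of a list of 6 epithelial genes, against 102 to 765 in untreated tumor MDSC, and no test was made between bulk and sorted material.

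Levels of different members were compared per kilobase of exon, as FPKM (CPM per kilobase). Slfn2 led in each untreated MDSC fraction. It made up 41.6% ± 3 (SD, n = 4) of the summed FPKM of the 7 genes in spleen PMN-MDSC, 55.8% ± 4.97 in tumor PMN-MDSC, 53.5% ± 2.37 in spleen M-MDSC and 62% ± 5.36 in tumor M-MDSC. Slfn1 made up 26.7% ± 0.29, 18% ± 3.33, 18.9% ± 2.18 and 12.5% ± 1.91 in the same order, and Slfn4 27.1% ± 2.65, 15.9% ± 3.4, 3.37% ± 0.345 and 6.23% ± 1.34. In treated mice Slfn4 was the largest share in 3 fractions, at 56.4% ± 5.05 (n = 3) in spleen PMN-MDSC, 45.2% ± 2.38 (n = 4) in tumor PMN-MDSC and 35.9% ± 4.72 (n = 4) in spleen M-MDSC. In treated tumor M-MDSC Slfn2 remained the largest, at 42.4% ± 9.02, with Slfn4 at 25% ± 15.8 and 7.84% in the library low in Ly6c2 (n = 3). Slfn5 took 14.8% ± 1.01 in untreated spleen M-MDSC and 2.48% ± 0.491 in untreated spleen PMN-MDSC. In bulk tumor, Slfn2 made up 75.7% ± 2.2 and Slfn9 14.2% ± 3.57. The summed FPKM of the family was 1738.3 ± 230 in untreated and 4410 ± 1381.8 in treated spleen PMN-MDSC, and 564 ± 47.4 and 1533.8 ± 177 in spleen M-MDSC. It was 494 ± 84.3 in untreated and 1773.7 ± 721 in treated tumor PMN-MDSC. In tumor M-MDSC it was 535 ± 62.4 and 1029.1 ± 554, and the treated libraries ranged from 395 to 1418.9, below and above the untreated range of 472 to 598. The value of 395 belongs to the library low in Ly6c2, and the other treated libraries lay above the untreated ones.

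**Figure D2:**
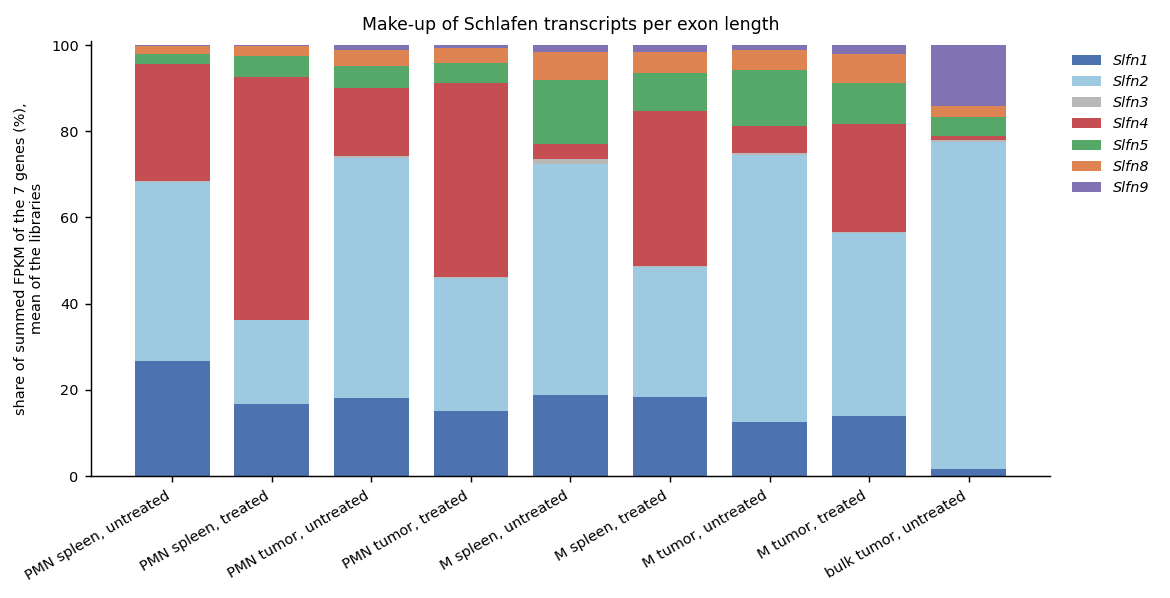
Mean share (%) of each Schlafen gene in the summed FPKM of the 7 genes, by group (n = 3 or 4 libraries each). The share of Slfn4 is 27.1% in untreated and 56.4% in treated spleen PMN-MDSC and 3.37% and 35.9% in spleen M-MDSC, while bulk tumor is mostly Slfn2 at 75.7%.

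The first set of comparisons set treated against untreated libraries in each fraction. The response to treatment chose the family, so the numbers of members past a threshold, and the shares of all genes beside them, describe these libraries and support nothing. Counts were fitted with edgeR's quasi-likelihood F-test over every gene whose mean count reached 25, and p-values were adjusted after Benjamini and Hochberg. Rose or fell is written here of an adjusted p under 0.05 with at least a 2-fold change, and the study's stricter threshold is an adjusted p under 0.001 with at least 2-fold. In spleen PMN-MDSC, 4 of 7 members rose, Slfn4, Slfn5 (log2 fold change 2.64 ± 0.28), Slfn8 (2.11 ± 0.32) and Slfn9 (2.17 ± 0.46), where 4.71% of the 7261 genes tested rose. Slfn1 (0.91 ± 0.24), Slfn3 (0.87 ± 0.40) and Slfn2 (0.49 ± 0.26) did not pass. At the stricter threshold 0 members passed, beside 0.0413% of all genes, while 4 members did with DESeq2, the study's tool. Without the library of 1561674 counts, whose cell cycle list summed to 782 CPM against 53.6 and 70.5 in the other treated libraries, 3 members passed it. Slfn1 passed the wider rule without that library (1.08) or without the untreated library of 2008010 counts (1.01), and Slfn9 no longer did without either other treated library or the untreated library of 3114240 counts (1.77 to 2.27). Markers moved in the same fraction. The neutrophil list summed to 15099 to 24815 CPM in untreated and 26845 to 36967 in treated libraries, Ly6g stood at 34.5 to 84.7 and 226 to 335 CPM, and S100a8 at 1111.3 to 3171.4 and 3459.7 to 7730.8 CPM. Csf3r, the receptor gene of granulocyte colony-stimulating factor and another defining neutrophil gene, went the other way, from 5473 to 7909.3 CPM untreated down to 1668.7 to 4938 CPM treated. The macrophage list stood at 554 to 1804.5 and 138 to 241 CPM. Without overlap, Ly6c2 went from 40.6 to 99.3 CPM untreated up to 584 to 995 CPM treated. The monocyte receptor gene Ccr2 went from 30.9 to 220 CPM down to 0.743 to 1.92 CPM. The dendritic cell list of 8 genes summed to 255 to 382 CPM untreated and 48.7 to 94.7 CPM treated. The part of this shift in the Schlafen values was not tested. Unscaled CPM ratios lay lower in this fraction, with a median over genes shifted by -0.29 on the log2 scale against the fit.

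In tumor PMN-MDSC, 4 of the 6 members tested rose, where 1.85% of 8308 genes did. They were Slfn4, Slfn8 (1.79 ± 0.22), Slfn5 (1.65 ± 0.24) and Slfn1 (1.55 ± 0.34). Slfn2 (1.01 ± 0.31) and Slfn9 (0.81 ± 0.18) did not pass, and Slfn3 fell below the count minimum. At the stricter threshold 0 members and 0.241% of genes passed, while 4 members did with DESeq2. With edgeR, 3 members passed it without the treated library of 2321907 counts, the highest of its group for Slfn1, Slfn2, Slfn4, Slfn5 and Slfn8. Slfn1 no longer passed when any 1 of the 4 untreated libraries, or the treated library of 2192320 counts, was left out (1.34 to 1.67). The neutrophil list of these tumor libraries summed to 1831.7 to 4946.9 CPM untreated and 3983.4 to 11814 treated, and the macrophage list to 10182 to 13746 and 8170 to 19779. Without overlap, Ccr2 went from 312 to 458 CPM untreated down to 11.6 to 86 CPM treated, and Ly6c2 from 1.9 to 11.2 up to 67.5 to 245 CPM. The monocyte list summed to 7825.4 to 13913 CPM untreated and 4619.9 to 8681 treated, with overlap. The part of these markers was not tested.

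In spleen M-MDSC, 4 of 7 members rose, where 4.84% of 8827 genes did. Slfn4, Slfn1 (1.47 ± 0.17) and Slfn8 (1.13 ± 0.11) also passed the stricter threshold, which 2.47% of genes passed, and Slfn9 (1.37 ± 0.24) passed the wider one. Slfn5 (0.76 ± 0.17) and Slfn2 (0.68 ± 0.14) changed by less than 2-fold, and so did Slfn3, at -0.87 ± 0.23. Without the library rich in Ighm, Slfn4 stood at 5.0, Slfn1 at 1.53, Slfn8 at 1.15, Slfn5 at 0.91 and Slfn3 at -0.93. Markers moved in this fraction too. The monocyte list of 10 genes summed to 14322 to 20283 CPM in untreated and 5600.9 to 10859 CPM in treated libraries, and the dendritic cell list of 8 genes to 65 to 186 and 228 to 303 CPM. The monocyte receptor gene Ccr2 stood at 1247.8 to 1524.5 CPM untreated and 90.2 to 316 CPM treated, and Ly6c2 at 119 to 202 and 785 to 1014.1 CPM. Their part in the Schlafen values was not tested. The stricter count was 1 without any of the untreated libraries of 1896132, 2416347 and 4200907 counts.

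In tumor M-MDSC, 1 of the 6 members tested rose, Slfn9 (1.51 ± 0.23), where 1.69% of 8360 genes did. Slfn4 (3.12 ± 0.73), Slfn1 (1.06 ± 0.42), Slfn8 (1.05 ± 0.27), Slfn2 (0.22 ± 0.35) and Slfn5 (0.17 ± 0.27) did not pass, and Slfn3 fell below the count minimum. At the stricter threshold 0 members passed, beside 0.0120% of genes, while 2 members did with DESeq2. Without the library low in Ly6c2, Slfn4 stood at 3.66, Slfn1 at 1.49, Slfn8 at 1.19 and Slfn9 at 1.65, and all 4 rose. Slfn2 stood at 0.57 and Slfn5 at 0.42 without it. That fit left 2 treated libraries. In all 3 treated libraries the monocyte list was below the untreated range, at 6027.2 to 11489 CPM against 16494 to 20343, and so was Ccr2, at 34.7 to 491 CPM against 1102.6 to 1462. The dendritic cell list was above it in all 3, at 266 to 733 CPM against 104 to 149. The macrophage list summed to 3568.8 to 8664.2 CPM in untreated libraries of this fraction and the cell cycle list to 184 to 532, against 700 to 1049.7 in treated ones, and their part was not tested. Slfn9 no longer passed without the treated library of 2714025 counts (1.33) or without the untreated library of 1818799 (1.42) or 3604818 counts (1.45).

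**Figure D3:**
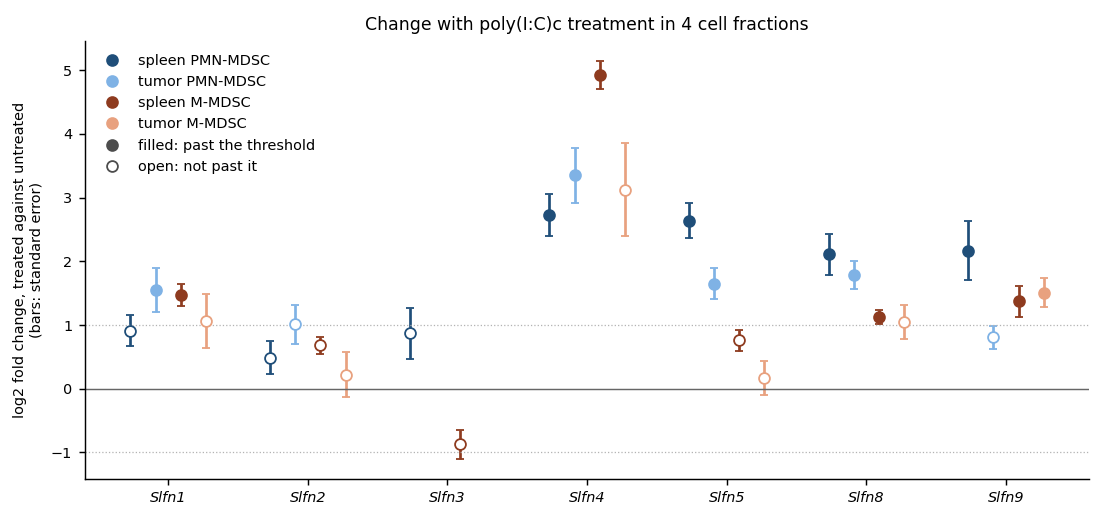
Fitted log2 fold change of each Schlafen gene, treated against untreated, with its approximate standard error, in the 4 sorted fractions. Filled points passed an adjusted p under 0.05 with at least a 2-fold change, dotted lines mark 2-fold, and Slfn4 has the highest value in each fraction, from 2.73 to 4.93, while Slfn3 was tested in the spleen fractions alone.

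The tumor M-MDSC library low in Ly6c2 is described by how many genes exceeded the untreated range. Of the 7 members, 2 (Slfn8 and Slfn9) exceeded every untreated tumor M-MDSC library there, against 6 in each of the other treated libraries. Of the 8360 genes tested in this fraction, 35% exceeded every untreated library there, against 29.1% and 32.6% in the others. Of the 16 genes of the interferon pathway list, 10 exceeded every untreated library, as against 9 and 10. These counts come from single libraries, and the difference between members and list was not tested. Irf7, the master regulator of interferon transcription, stood at 700 CPM against 1142.2 and 1057.8. Usp18, a negative regulator of the interferon receptor, stood at 31.7 CPM against 177 and 188, and the ubiquitin-like Isg15 at 38.1 against 142 and 167. The untreated means were 112, 24.3 and 26.4 CPM. Its T cell list summed to 139 CPM against 12.2 and 25.8, and its dendritic cell list to 733 CPM against 266 and 318, all 3 above the untreated libraries.

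**Figure D4:**
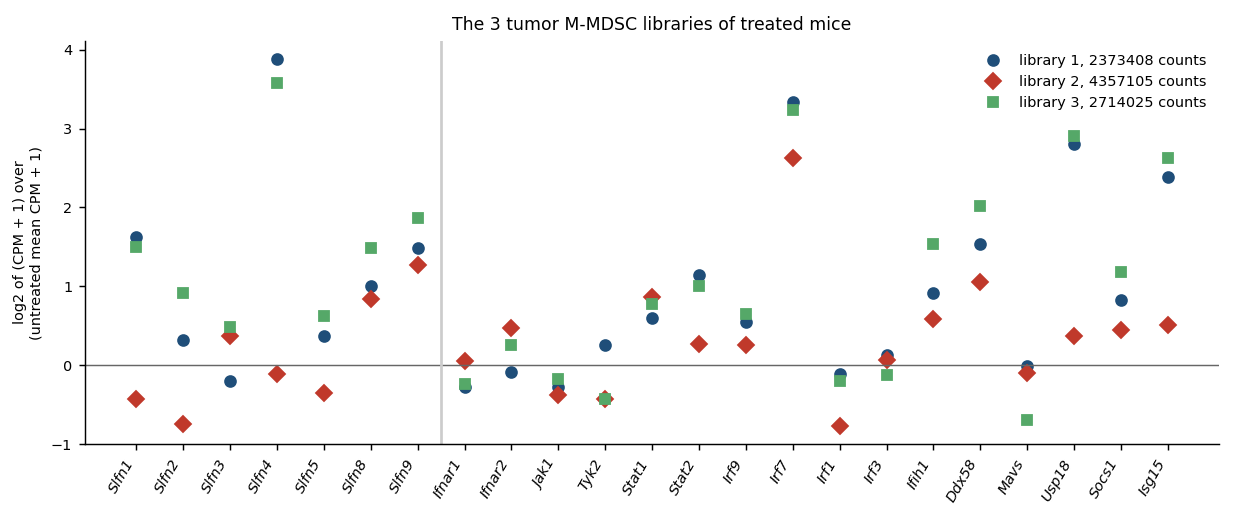
Log2 ratio of CPM + 1 to the mean of untreated tumor M-MDSC for the 7 Schlafen genes (left of the line) and 16 interferon pathway genes in the 3 treated tumor M-MDSC libraries. In the library with 4357105 counts (red diamonds) Slfn4 lies at -0.11, against 3.88 and 3.58, while Irf7 lies at 2.63, against 3.34 and 3.23.

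The interferon pathway list was compared as other genes of the pathway, from receptor to targets. In each fraction the receptor chains Ifnar1 and Ifnar2 and the kinases Jak1 and Tyk2 did not pass, with log2 fold changes between -0.37 and 0.62. In spleen PMN-MDSC, 7 of 15 genes tested rose and 0 fell, with a median of 0.91 against 0.01 over all genes and 2.11 over the members. Mavs, a gene of the list not counted as fallen, stood there at 4.4 to 22.6 CPM untreated and 0.36 to 1.49 CPM treated. In tumor PMN-MDSC, 7 of 16 rose and 0 fell, with a median of 0.70 against 1.60 over the members. In spleen M-MDSC, 7 of 16 rose and 0 fell, with a median of 0.70 against 1.13. In tumor M-MDSC, 2 of 16 rose and 0 fell, with a median of 0.53 against 1.05. The genes that rose in the first 3 fractions included the factor gene Stat2 (2.67, 1.42 and 1.47), Irf7 (2.75, 3.88 and 2.95), the sensor genes Ifih1 (2.25, 1.02 and 1.87) and Ddx58 (1.65, 1.58 and 1.98), and Usp18 (3.94, 3.38 and 3.30). Irf7 (3.01) and Ddx58 (1.51) were those that rose in tumor M-MDSC. In spleen M-MDSC, Slfn4 (4.93) lay above Isg15 (4.02), the highest gene of the list. In PMN-MDSC of spleen and of tumor, Slfn4 lay below both Usp18 and Irf7. The list was chosen with earlier results of these data known, and the medians are over the genes tested in each fraction.

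Treatment effects were set against each other between organs and between cell types by an interaction term over 4 groups, at an adjusted p under 0.05. These differences are built from the responses that chose the family and are given as a description. In spleen, the difference of effect between PMN-MDSC and M-MDSC passed for 3 of 7 members, where it passed for 10.9% of 8417 genes. The change of Slfn4 was smaller in PMN-MDSC by 2.10 ± 0.39 on the log2 scale (a difference of -2.10), from the higher untreated level given above. The change of Slfn5 was larger in PMN-MDSC by 1.97 ± 0.34. For Slfn3 the difference was 1.84 ± 0.45, from changes of opposite sign, upward in PMN-MDSC and downward in M-MDSC, neither of which passed. Without the treated spleen PMN-MDSC library of 2693600 counts, Slfn3 stood at 1.25 and did not pass, and without that of 1561674 counts Slfn8 passed at 1.4. Slfn3 did not pass either, at 1.65, with a replicate block assumed from the column numbers, under which 2 members passed. At an adjusted p under 0.001, 0 members passed. The difference between tumor and spleen passed for 0 of 6 members tested in PMN-MDSC and 0 of 7 in M-MDSC, beside 3.50% and 0.790% of genes, and for 0 of 6 between cell types in tumor, beside 0.0239%. In PMN-MDSC without the library of 1561674 counts, Slfn5 (-1.25) and Slfn9 (-1.66) passed with a smaller effect in tumor, and Slfn5 (-1.26) did without the tumor library of 2321907 counts. Slfn5 in tumor stood at 1.47 ± 0.37 between cell types and -0.97 ± 0.37 between organs in PMN-MDSC. Between cell types in tumor it passed with DESeq2 or without a filter on low counts, at 1.49 in each. Some signs rested on the treated tumor M-MDSC library low in Ly6c2. Without it, the difference of Slfn4 between cell types in tumor reversed to -0.31. Those of Slfn1 and Slfn8 between organs in M-MDSC reversed to 0.03 and 0.07. A difference that missed the threshold was not shown to be absent at this number of libraries.

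The next comparison asked how the family differed between organs in untreated mice. In PMN-MDSC, tumor cells held less of 4 of the 6 members tested, and all 4 passed the stricter threshold. They were Slfn4 (log2 difference -2.69 ± 0.30, edgeR adjusted p = 4.7e-05), Slfn1 (-2.50 ± 0.28, adjusted p = 4.9e-05), Slfn2 (-1.56 ± 0.22, adjusted p = 1.9e-04) and Slfn8 (-1.04 ± 0.16, adjusted p = 3.8e-04). Slfn5 differed by less than 2-fold (-0.92 ± 0.14, edgeR adjusted p = 2.8e-04). Slfn9 was higher in tumor (1.24 ± 0.29, edgeR adjusted p = 0.00422). Over all genes tested, 21.7% passed the stricter threshold, 19% were higher in tumor and 18.0% lower by the wider rule. The stricter count was 2 without the tumor library of 2502390 counts, and Slfn8 fell short of 2-fold without any of 3 tumor libraries (-0.99 to -0.97).

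These tumor PMN-MDSC were the libraries poor in Ly6g. Their neutrophil list of 10 genes summed to 1831.7 to 4946.9 CPM, against 15099 to 24815 in spleen, and S100a8 stood at 75.8 to 408 CPM against 1111.3 to 3171.4. The part of these differences in the Schlafen values was not tested.

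In M-MDSC, 1 of 7 members was higher in tumor and 1 lower by the wider rule. Slfn4 was higher (1.07 ± 0.19, edgeR adjusted p = 0.00106) and Slfn3 lower (-1.54 ± 0.30, adjusted p = 0.00252). Slfn9 (-0.63 ± 0.19), Slfn1 (-0.44 ± 0.16), Slfn2 (0.40 ± 0.14), Slfn8 (-0.26 ± 0.18) and Slfn5 (-0.01 ± 0.16) did not reach 2-fold. Over all genes 8.42% were higher and 5.37% lower, and 8.60% passed the stricter threshold, which 0 members passed. Without the tumor library of 793070 counts, 2 members passed it. Slfn4 fell short of 2-fold without either of 2 tumor libraries or 1 spleen library (0.95 to 0.99) and under upper-quartile scaling (0.93), and it did not pass in 1 fit over the 8 MDSC groups (1.07). Slfn4 thus went opposite ways between the organs in PMN-MDSC and M-MDSC, and the difference of these differences was not tested. Markers differed between these M-MDSC without overlap. The macrophage list summed to 950 to 1173.8 CPM in spleen and 3568.8 to 8664.2 in tumor, the neutrophil list to 1737.7 to 3367.1 and 262 to 591, and the cell cycle list to 683 to 1453.8 and 184 to 532. Their part was not tested.

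Between the cell types in untreated spleen, PMN-MDSC held more of 3 of 7 members and less of 2. Slfn4 showed the widest gap, 32.1-fold higher in PMN-MDSC (log2 difference 5.0 ± 0.21, adjusted p = 6.0e-07 in edgeR). Slfn1 (2.50 ± 0.20, adjusted p = 8.4e-06 by edgeR) and Slfn2 (1.65 ± 0.17, adjusted p = 3.5e-05) were higher too. Slfn9 (-1.67 ± 0.31, edgeR adjusted p = 0.0013) and Slfn3 (-1.19 ± 0.25, adjusted p = 0.00246) were lower. Slfn5 differed by less than 2-fold (-0.61 ± 0.13, edgeR adjusted p = 0.00274), and Slfn8 did not pass (0.19 ± 0.13, adjusted p = 0.231), with a value of -0.06 under upper-quartile scaling. Of all genes, 18.0% were higher and 20.3% lower, and 23.2% passed the stricter threshold, as 3 members did.

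In untreated tumor, Slfn4 was higher in PMN-MDSC (1.31 ± 0.27, edgeR adjusted p = 0.0075) and Slfn5 lower (-1.46 ± 0.16, adjusted p = 1.1e-04). The remaining 4 members tested stood between -0.54 and 0.51 and did not pass. Of all genes 4.71% were higher and 1.69% lower, and 1.65% passed the stricter threshold. Slfn5 alone among the members passed it, and 2 members did without the PMN-MDSC library of 1648775 counts. In 1 fit over the 8 MDSC groups Slfn4 did not pass, at the same 1.31. The macrophage list summed to 10182 to 13746 CPM in these PMN-MDSC and 3568.8 to 8664.2 in these M-MDSC, and its part was not tested.

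Relatives and neighbours of the cluster were followed as well. The pseudogene Slfn10-ps, which lies between Slfn8 and Slfn2, held 6.5 to 18.8 CPM in untreated and 20.5 to 27.1 CPM in treated tumor PMN-MDSC, and stood at 1.13 ± 0.30 without passing. In tumor M-MDSC it held 10.1 to 24.7 CPM untreated and 24.3 to 58.2 CPM treated, and did not pass at 1.24 ± 0.40. It fell below the count minimum in the spleen fractions, with 3.98 to 16.9 CPM untreated and 3.6 to 10 CPM treated in PMN-MDSC, and 2.86 to 4.64 and 4.95 to 31 CPM in M-MDSC. In bulk tumor it held 13.3 to 26.3 CPM, and so overlapped both untreated tumor fractions. Slfn14, the member next to the cluster, had 4 to 22 counts in untreated spleen PMN-MDSC and 0 to 5 in untreated spleen M-MDSC, and at most 2 elsewhere. A list of 6 erythroid genes stood at 59.3 to 175 CPM in untreated and 0.36 to 7.04 CPM in treated spleen PMN-MDSC, and at 28.3 to 60.5 and 0.675 to 3.16 CPM in spleen M-MDSC. Its part in the Slfn14 counts was not tested. Slfnl1, on chromosome 4, had at most 4 counts in any library. Of the 39 other annotated genes in the cluster or within 250 kb of it, 6 or 7 were tested in each fraction and 0 rose or fell. Their median log2 fold changes were 0.22, -0.04, -0.01 and -0.18 in spleen PMN-MDSC, tumor PMN-MDSC, spleen M-MDSC and tumor M-MDSC. Over all genes tested, 4.71%, 1.85%, 4.84% and 1.69% rose in the same order, so that 0 of 6 or 7 says little about these neighbours.

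**Figure D5:**
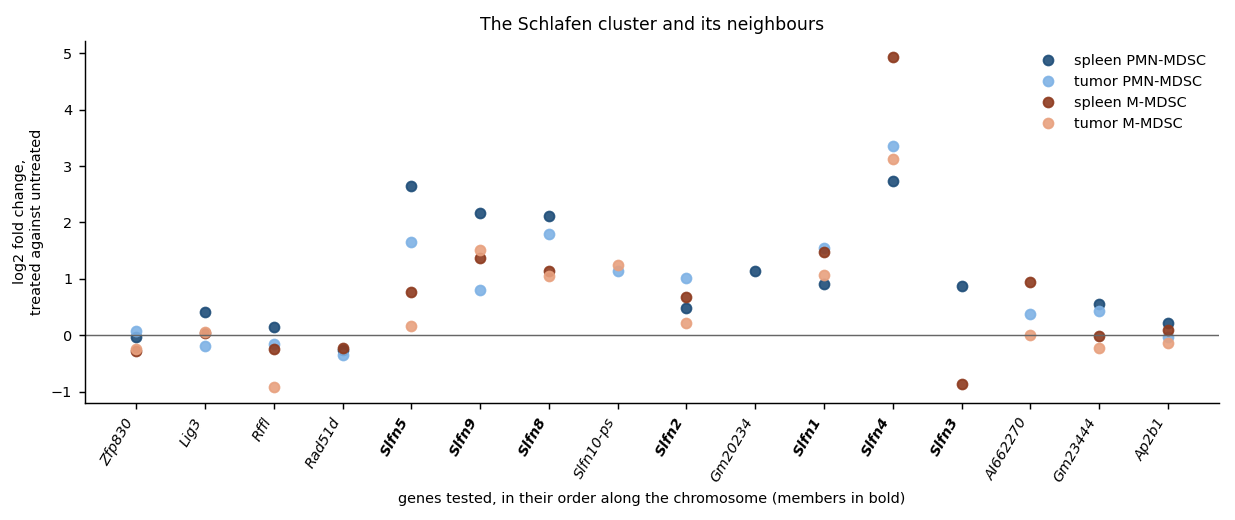
Fitted log2 fold change, treated against untreated, of the genes tested in and beside the cluster, in their order along the chromosome, with members in bold. Members, chosen with their response known, reach 4.93 (Slfn4 in spleen M-MDSC), while the neighbours outside the cluster lie between -0.91 and 0.94.

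Likeness of pattern was described by Pearson's r of log2(TMM CPM + 1) over the 30 MDSC libraries, among 8535 genes. The libraries share their groups, so that any pair of genes that differ between groups in the same way has a high r. Among members, Slfn1 and Slfn2 (r = 0.92), Slfn1 and Slfn4 (0.91), Slfn5 and Slfn8 (0.89) and Slfn2 and Slfn4 (0.85) were most alike. Slfn9 was at 0.01 with Slfn1, -0.13 with Slfn2 and 0.55 with Slfn8, and Slfn3 at 0.01 with Slfn4. Of all genes, Oasl2 was nearest to Slfn1 (0.967, then Rab8a and N4bp1) and to Slfn4 (0.948, then Rsad2 and Isg20). N4bp1 was nearest to Slfn2 (0.936, then Dop1b and Mcemp1), Ifi27l2a to Slfn5 (0.951, then Ifitm3 and Ogfr), Gm20559 to Slfn8 (0.956, then Herc6 and Parp9) and Ifi213 to Slfn9 (0.915, then Phf11d and Ifi209). Slfn3, whose values rest on few counts, had no gene above 0.736 (Yipf3, then 9930111J21Rik1 and Slc35b3). The ranking depended on the measure. With Spearman's rho 0 or 1 of the 3 genes named for each member stayed among its nearest 3, and over the means of the 8 MDSC groups 0 to 2 did.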

How the data were processed

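RNA of sorted PMN-MDSC and M-MDSC and of bulk tumor was sequenced from rRNA-depleted, stranded libraries amplified by PCR without molecular identifiers, so floors cover counting error only. The table the authors deposited holds unnormalized counts, 1 column per library and 1 row per gene. According to the methods, reads were mapped to mm10 with ContextMap and BWA and counted by strand with featureCounts (Subread 1.4.6-p3 in the submitters' processing notes) on Gencode v16. CPM and FPKM were computed here from the deposited counts.

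Columns were assigned to groups by cell type, organ and treatment in their names. A tumor M-MDSC library of treated mice with 10 counts was left out, which left 34 of 35. Library pairs within groups (48) differed beyond sampling noise, with a chi-square per degree of freedom of 6.88 to 55.8. Of 53379 identifiers, 53274 matched GENCODE M21 (GRCm38), used for symbols, positions and exon lengths. Promoter windows came from RefSeq and were found for all 7 members.

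Tests used edgeR 4.0.16 in R 4.3.3: TMM, robust quasi-likelihood F-tests (two-sided), genes with mean counts of 25 or more, Benjamini-Hochberg adjustment over all genes, each comparison fitted on its own groups. The SE of a log2 fold change is approximate, as its absolute value divided by the square root of the F statistic. The code was tested on simulated data. Alternatives were DESeq2 1.42.0, RLE and upper-quartile scaling, no filter, at least 10 counts in every library, no robust estimates, other thresholds, 1 fit over the 8 MDSC groups, each library left out and, chosen after seeing the data, a replicate block. The genes named were the members, their relatives, a list of 16 interferon pathway genes, neighbours within 250 kb that rose or fell with treatment, and for each member the 3 genes with the highest r. The members and lists were chosen with earlier results of these data known. The genotype of the tumor line is given in part, and the rest is not reported here.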

Additional observations from a re-analysis of the deposited data

Results flagged for a closer look

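Among 49 groups of 4 libraries, 3 held a library far from the others by Dixon's criterion, which chance alone meets in about 1 of 20 groups. Treated spleen M-MDSC held a library with 952 CPM of Slfn2, against 675 to 721 in the others (a gap of 0.833 of the range), and a different library with 2921.6 CPM of Slfn4, against 1911.2 to 1969.4 (0.942). A bulk tumor library held 11.2 CPM of Slfn5, against 25.2 to 27.5 (0.859).

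An interaction term in edgeR passed an adjusted p under 0.05 for the difference of treatment effect between PMN-MDSC and M-MDSC of the spleen for Slfn4 (a log2 difference of -2.10, PMN-MDSC minus M-MDSC), Slfn3 (1.84) and Slfn5 (1.97). None passed at 0.001, and Slfn3 did not pass without the treated PMN-MDSC library of 2693600 counts (1.25) or with a replicate block assumed from the column numbers (1.65). Both comparisons are those in which the family was chosen, so these are descriptions.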

How the results depend on the processing

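The labels' numbers are not in the column names, and treated and untreated groups share none, so that no treatment comparison can be paired. As an alternative chosen after seeing the data, a replicate block was taken from the column numbers in runs of 4, which is an assumption about which libraries belong together. Deviations from the group means correlated within every such pair over 0.1 between cell types of the untreated spleen (0.12 to 0.25). The other pairs there lay at -0.26 to 0.12, and the 3 stricter calls were as without the block. Between cell types of the untreated tumor such pairs lay at 0.08 to 0.18 and the other pairs at -0.18 to 0.08. In the remaining comparisons the ranges of such pairs and of other pairs overlapped. With the block, the stricter count between organs went from 4 to 3 in PMN-MDSC and from 0 to 1 in M-MDSC. In the spleen, the difference of treatment effect between cell types passed for 2 members in place of 3, with Slfn3 at 1.65 not passing and Slfn2 at 0.02 in place of a negative value. The other counts were as without it.

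In spleen PMN-MDSC 0 members passed the stricter treatment threshold, but 4 passed under an adjusted p under 0.05, DESeq2, no filter on low counts, or 1 fit over the 8 MDSC groups. In tumor PMN-MDSC 0 became 4 (adjusted p under 0.05, DESeq2), 2 (upper-quartile scaling), 5 (no filter), 1 (at least 10 counts in every library) and 3 (1 fit). In spleen M-MDSC 3 became 1 in 1 fit. In tumor M-MDSC 0 became 1 (adjusted p under 0.05, 1 fit), 2 (DESeq2) and 3 (no filter). Between organs in M-MDSC 0 became 2 (adjusted p under 0.05, DESeq2, no filter) and 1 (1 fit). Between cell types 3 became 5 in spleen (adjusted p under 0.05, DESeq2, upper-quartile scaling, no filter), and 1 became 2 in tumor (adjusted p under 0.05, DESeq2, no filter). For differences of treatment effect, 0 became 1 without a filter between organs in either cell type, 3 became 0 at an adjusted p under 0.001 between cell types in spleen, and 0 became 1 in tumor (DESeq2, no filter). The highest group mean FPKM, of Slfn4 in treated spleen PMN-MDSC, was 2524.7 and became 3546.8 with TMM-scaled libraries. Upper-quartile scaling moved the median of all genes by up to 0.25 on the log2 scale, turned Slfn8 between cell types of the spleen to -0.06, and left Slfn8 between organs in PMN-MDSC (-0.88) and Slfn4 in M-MDSC (0.93) short of 2-fold. In 1 fit over the 8 MDSC groups, Slfn4 passed neither between organs in M-MDSC (1.07) nor between cell types in tumor (1.31). The causes were not tested.

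With each library left out, the counts ranged over 0 to 3, 0 to 3, 1 to 3 and 0 to 1 for treatment in spleen PMN-MDSC, tumor PMN-MDSC, spleen M-MDSC and tumor M-MDSC, 2 to 4 and 0 to 2 between organs in PMN-MDSC and M-MDSC, and 3 to 4 and 1 to 2 between cell types in spleen and tumor. For differences of treatment effect they ranged over 0 to 2 and 0 to 0 between organs in PMN-MDSC and M-MDSC, and 2 to 4 and 0 to 0 between cell types in spleen and tumor. Of 791 member values so obtained, 16 changed sign, each from a value that had not passed. For these results the values ranged over -0.20 to 0.57 (Slfn2) and -0.04 to 0.42 (Slfn5) for treatment in tumor M-MDSC, and -0.11 to 0.09 (Slfn5) between organs in M-MDSC. For differences of effect between organs they ranged over -0.60 to 0.10 (Slfn8) in PMN-MDSC, and -0.72 to 0.03 (Slfn1), -0.29 to 0.16 (Slfn8) and -0.05 to 0.30 (Slfn9) in M-MDSC. Between cell types they ranged over -0.32 to 0.12 (Slfn2) in spleen and -0.31 to 0.75 (Slfn4) in tumor. Depth limits Slfn3, which fell below the count minimum in most tumor comparisons.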
